A study of Homo sapiens with 24 samples.

Results

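MAB21L2 is a single-exon gene on human chromosome 4 that lies inside an intron of LRBA. The locus was taken as all deposited regions that overlap a window around the gene (hg19, chromosome 4, 151450000 to 151560000), and 5 of 153244 regions did. The window was chosen because neighbouring regions in it had less H3K4me3 and H3K27ac after knockdown of ZNF436. The knockdown differences in these marks are therefore given as a description. Where the fit across all regions also called members in these marks, the number called restates the choice and is no test of it. H3K4me1 and H3K9me3, which were measured in other libraries, did not enter the choice and were tested.

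The material was ventricular-like cardiomyocytes, derived from H9 (a human embryonic stem cell line) and harvested on day 15. Each of 4 histone marks was profiled in 3 control libraries and 3 libraries with knockdown (kd) of ZNF436, which encodes a zinc finger protein; the labels give neither the knockdown method nor the control treatment. The assay was CUT&Tag, where an antibody-bound transposase inserts sequencing adapters next to marked nucleosomes. The study is about tissue-dependent restriction of transposon-derived regulatory elements. Neither the level of ZNF436 nor cardiomyocyte markers were analysed here, since regions could not be tied to genes on hg19.

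MAB21L2 encodes a protein of the Mab-21 family and is known for its part in the development of the eye, where variants cause small or malformed eyes. In the mouse embryo it is also needed for heart and liver development. LRBA encodes a large protein of vesicle trafficking that is known from an inherited immune deficiency. H3K4me3 marks active promoters, H3K27ac active promoters and enhancers, H3K4me1 enhancers and the flanks of promoters, and H3K9me3 silenced chromatin.

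The 5 regions lay within 20 kb. The widest, called here the MAB21L2 region, spans chromosome 4, 151499859 to 151506019 (6161 bp), and holds the whole stretch in which the gene was placed (about 151503000 to 151505900). Only 0.947% of all regions were wider, against a median of 708 bp. The left region (151493740 to 151495048) lay 4810 bp before it. The near right region (151506515 to 151507808) followed after 495 bp, the middle right region (151508996 to 151510335) after another 1187 bp and the far right region (151512433 to 151513268) after another 2097 bp. Of the 5, 4 had enough counts for a fit in H3K4me3, 4 in H3K27ac, 4 in H3K4me1 and 0 in H3K9me3.

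CUT&Tag carries no strand, and the counts cannot tell MAB21L2 from another gene that starts in the same region. In RefSeq, LRBA-AS1, a long noncoding RNA, is the gene next to MAB21L2 within LRBA. MAB21L2 itself was not matched in the RefSeq promoter table. For LRBA and LRBA-AS1, the promoter of each in that table closest to MAB21L2 is shown, and promoters of other genes were not searched. Promoter marks of these starts, if they fall in the same region, cannot be told apart from marks of the gene. The promoters shown belong to an internal start of LRBA (GRCh38.p14, chr4:150579840-150580139, minus strand) and to LRBA-AS1 (GRCh38.p14, chr4:150578839-150579138, plus strand). These positions are of another build than the counts, and whether these starts lie in the MAB21L2 region was not tested. Capitals mark GGGCGG or its reverse complement, and CCAAT.

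LRBA, internal start: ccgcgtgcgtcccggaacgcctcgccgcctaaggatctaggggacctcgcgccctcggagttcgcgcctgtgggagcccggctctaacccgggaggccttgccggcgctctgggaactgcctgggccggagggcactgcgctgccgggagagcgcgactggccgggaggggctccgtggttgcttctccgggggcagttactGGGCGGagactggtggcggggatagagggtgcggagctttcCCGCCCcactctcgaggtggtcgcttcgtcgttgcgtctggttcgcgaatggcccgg
LRBA-AS1: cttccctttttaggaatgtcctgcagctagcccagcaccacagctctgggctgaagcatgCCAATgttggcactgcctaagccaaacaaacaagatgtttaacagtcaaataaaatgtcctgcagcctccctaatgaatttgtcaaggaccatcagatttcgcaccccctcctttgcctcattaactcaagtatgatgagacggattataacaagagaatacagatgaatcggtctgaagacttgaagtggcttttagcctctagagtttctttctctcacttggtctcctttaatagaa

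Both promoters are 300 bases long, but their composition differs. The internal LRBA promoter has 71.3% G and C and 36 CpG sites, and 82.7% of the 35116 promoters in the table have a lower share of G and C. The LRBA-AS1 promoter has 43.7% G and C and 3 CpG sites, and 18.1% of promoters lie lower. GGGCGG (the GC box, either strand) occurs 2 times in the internal LRBA promoter and 0 times in that of LRBA-AS1, and 45% of all promoters hold it. CCAAT occurs 0 times and 1 time, with 34.6% of all promoters holding it. CANNTG (the E-box, which reads the same on both strands, not capitalised) occurs 0 and 2 times, and 68.7% hold it. TATAAA (the TATA box) occurs in neither and is held by 11.5% of promoters. The same holds for TAATTA (a homeodomain core, 4.84% of promoters), AGATAA (bound by GATA factors, 10.3%), GGTGTG (bound by T-box factors, 16.8%) and CTTTGA (bound by TCF and LEF factors, 12.9%), all searched on both strands.

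H3K4me3 over the MAB21L2 region was 88.5, 95.7 and 71.9 normalised CPM in the control libraries (replicates 1 to 3; CPM is the count per 1000000 of the TMM-normalised sum of the library's counts in tested regions). In the knockdown libraries it was 51.8, 35.1 and 43.2 CPM. The groups did not overlap, and the lowest control library stood 1.39-fold above the highest knockdown library. The group means were 85.4 ± 12.2 and 43.4 ± 8.34 CPM (SD, n = 3), so that knockdown cells kept 50.8% of the control level. The fitted log2 fold change, knockdown over control, was -0.98 (SE 0.14, edgeR).

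To the right of the gene, where H3K4me3 was lower to begin with, knockdown cells had a smaller share of the control level; the difference in fold between regions was not tested. The near right region had 13.3, 13.0 and 9.37 CPM in control and 2.24, 3.74 and 4.88 CPM in knockdown libraries. The middle right region had 8.40, 12.2 and 5.24 CPM in control and 1.49, 2.71 and 3.39 CPM in knockdown libraries. Knockdown means were 30.5% and 29.4% of the control means, and the log2 fold changes were -1.71 (SE 0.30) and -1.76 (SE 0.37). The far right region and the left region held few counts. The far right region had 23, 30 and 22 counts in control and 16, 3 and 2 in knockdown libraries, a log2 fold change of -1.69 (SE 0.69) that became -3.24 without knockdown replicate 1. The left region had 24, 10 and 20 counts against 6, 0 and 2. The library with 0 counts allows up to 0.239 CPM there (3 counts, counting error only).

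In H3K4me3, the knockdown libraries thus lay below all control libraries in all 5 regions. Of the 4 with enough counts for the test all 4 did, against 7.74% of all regions tested for this mark. The edgeR fit across all regions put 3 of the 4 under an adjusted p of 0.05 with a lower level, as it did 0.187% of all tested regions. Since the window was chosen on these differences, both counts and their distance from the share over all regions follow from the choice, and nothing is read from them. The number went from 3 to 0 without control replicate 1, to 2 without control replicate 2, and to 1 without knockdown replicate 1, 2 or 3; it was 2 with limma-voom. The log2 fold change of the MAB21L2 region stayed between -1.12 and -0.84 when single libraries were left out.

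**Figure D1:**
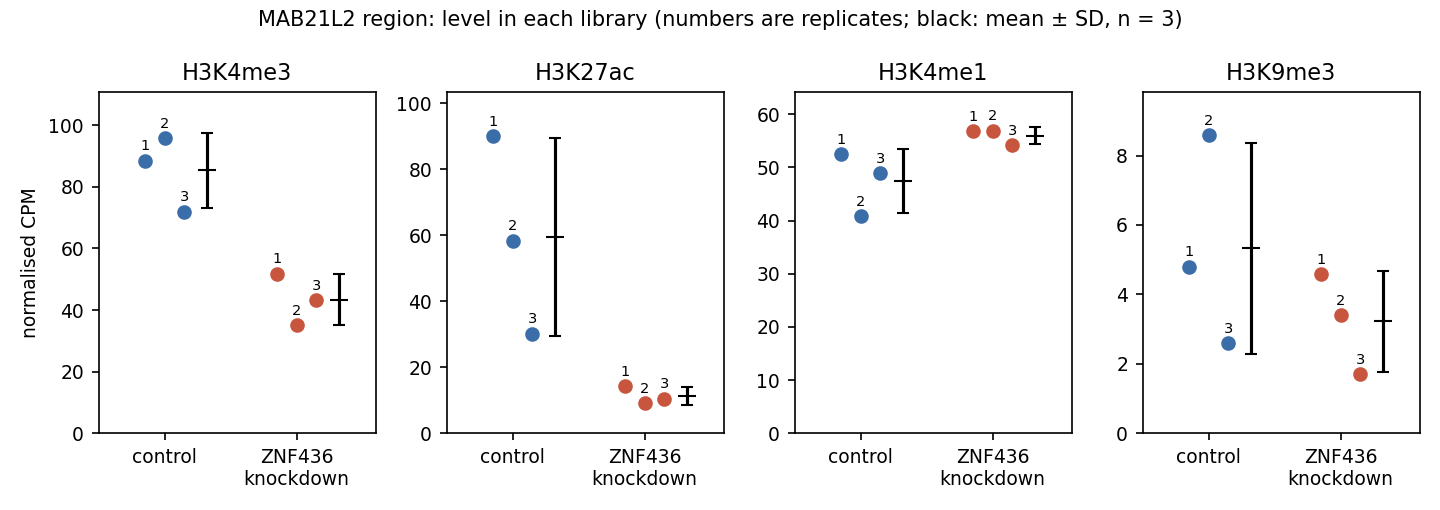
Normalised CPM (vertical axis, linear from 0) of the 4 marks over the MAB21L2 region in each control (blue) and knockdown (red) library. Numbers give the replicate, and black bars the mean ± SD of 3 libraries. The groups do not overlap in H3K4me3 and H3K27ac, where knockdown libraries lie lower, nor in H3K4me1, where they lie higher by little; in H3K9me3 they overlap.

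The share of the locus that lay in the MAB21L2 region differed as well. Of all H3K4me3 counts in the 5 regions, it held 77.6%, 77.3% and 79.8% in control libraries. In knockdown libraries it held 90.0% (95% exact binomial interval 87.3 to 92.2), 84.0% (80.6 to 87.0) and 83.4% (80.3 to 86.2). The highest control interval reached 82.2%, so the interval of knockdown replicate 1 lay above it and those of replicates 2 and 3 reached into it. The intervals cover counting error only. The region of the gene held a larger share of the H3K4me3 counts in each knockdown library than in any control library. In H3K27ac, that region held 68.5%, 67.4% and 63.6% in control and 66.7%, 51.1% and 54.8% in knockdown libraries, and the groups overlapped. In H3K9me3, which had few counts, it held 71.4%, 80% and 60% in control and 44.4%, 17.9% and 36.4% in knockdown libraries. Since the window was chosen on H3K4me3 and H3K27ac, the shares in these 2 marks are a description, and nothing is read from them.

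H3K27ac over the MAB21L2 region was 90.0, 58.4 and 30.1 CPM in the control libraries and 14.3, 9.09 and 10.5 CPM in the knockdown libraries. Control libraries differed 2.99-fold among themselves, and the lowest of them, replicate 3, still stood 2.11-fold above the highest knockdown library. Means were 59.5 ± 29.9 and 11.3 ± 2.69 CPM (SD, n = 3), and knockdown cells kept 19.0% of the control level. The log2 fold change was -2.39 (SE 0.38), between -2.68 without control replicate 3 and -1.94 without control replicate 1.

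The middle and far right regions followed the same order. The middle right region had 12.8, 11.0 and 7.34 CPM of H3K27ac in control and 1.36, 2.65 and 0.616 CPM in knockdown libraries (log2 fold change -2.74, SE 0.74; -3.32 without knockdown replicate 2). The far right region had 8.27, 6.24 and 4.77 CPM against 1.36, 2.27 and 0.616 CPM (-2.17, SE 0.88). Groups overlapped in the other regions. The near right region had 25, 20 and 7 counts in control and 0, 2 and 10 in knockdown libraries, too few for a fit. The left region differed by less than its spread, with 11.7, 3.67 and 2.57 CPM against 4.42, 3.03 and 4.32 CPM, a log2 fold change of -0.61 (SE 0.75) that became 0.35 without control replicate 1.

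For H3K27ac, knockdown libraries lay below all control libraries in 3 of the 5 regions, all 3 among the 4 tested, against 8.37% of all regions tested for this mark. The same fit put 1 of the 4, the MAB21L2 region, under an adjusted p of 0.05, and 0.00325% of all tested regions with a lower level. Leaving out control replicate 1, or any single knockdown replicate, ended the call; leaving out control replicate 2 or 3 did not. As for H3K4me3, the window was chosen on this difference, and nothing is read from these counts. Fewer cells with the marks and less of the marks per cell cannot be told apart in bulk libraries.

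**Figure D2:**
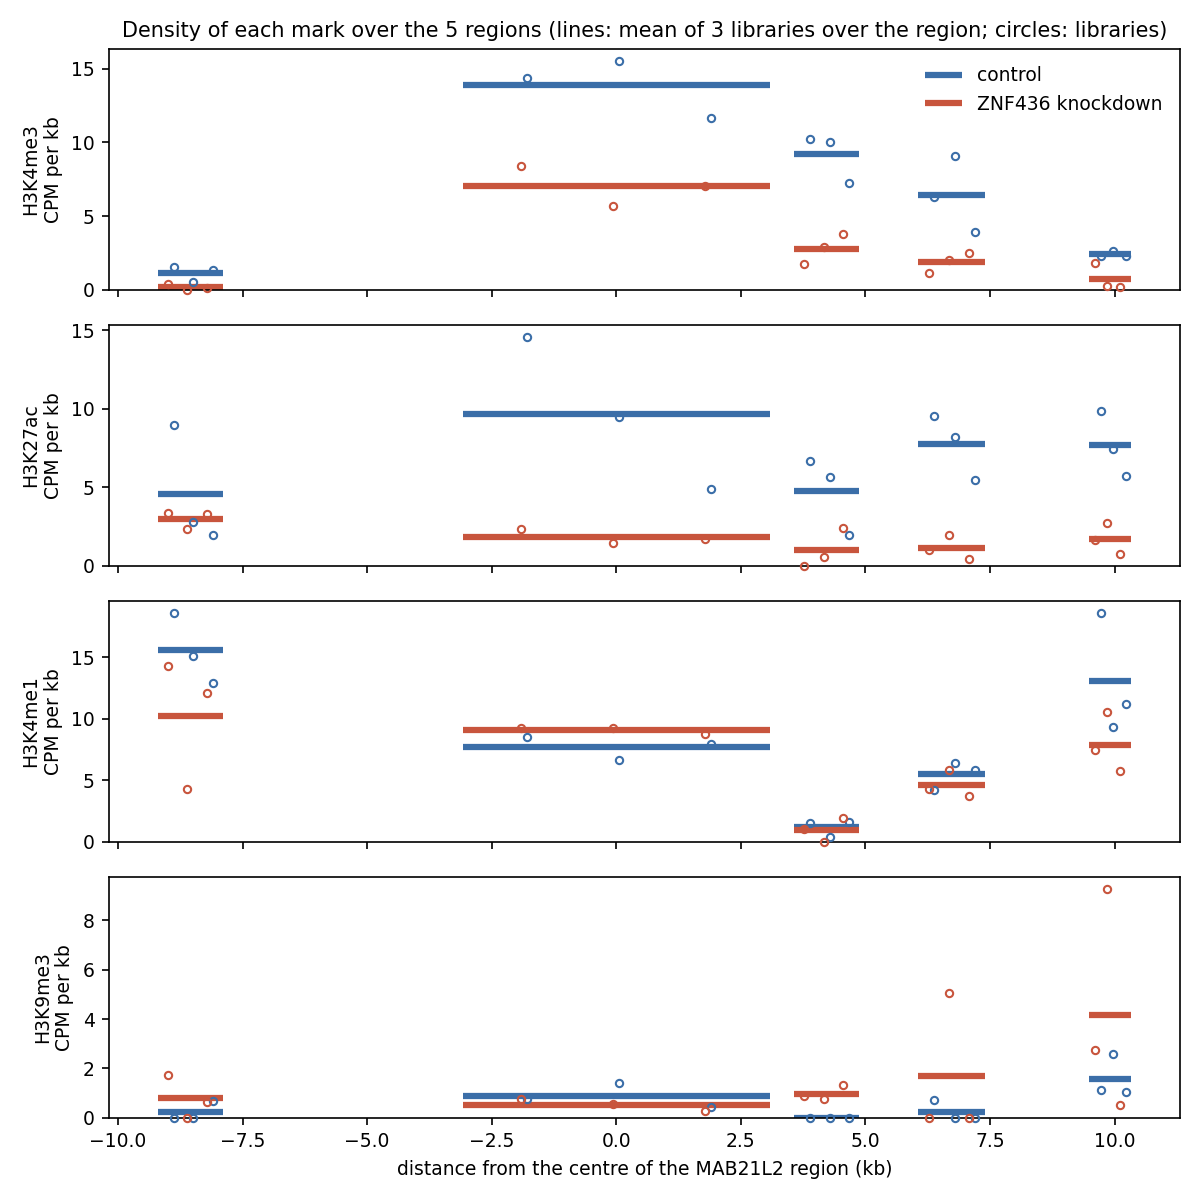
Density of each mark (CPM per kb of region, linear from 0) against distance from the centre of the MAB21L2 region in kb. Lines span each region at the group mean, and circles are the 3 libraries of a group, replicates 1 to 3 from left to right, spread along the region so that they can be seen. H3K4me3 is densest over the MAB21L2 region in both groups. H3K4me1 is densest over the left and far right regions in control cells, and over the left and MAB21L2 regions in knockdown cells. Knockdown lines (red) lie below control lines (blue) in every region for H3K4me3 and H3K27ac.

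H3K4me1, the mark of enhancers and promoter flanks, had no lower level over the gene in knockdown cells. Control libraries had 52.5, 40.8 and 48.8 CPM over the MAB21L2 region, and knockdown libraries 56.8, 56.9 and 54.2 CPM. The knockdown libraries all lay above the controls, an order that 7.9% of all tested regions had, but by little (means 47.4 ± 5.99 and 55.9 ± 1.55 CPM, SD, n = 3). The difference did not pass the test (log2 fold change 0.24, 95% interval -0.15 to 0.63, adjusted p = 0.682, edgeR's quasi-likelihood test).

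The outer regions, where H3K4me1 was densest in control cells, had lower knockdown means that did not pass the test either. The left region had 24.3, 19.8 and 16.9 CPM in control and 18.7, 5.62 and 15.8 CPM in knockdown libraries. Its log2 fold change was -0.61 (95% interval -1.30 to 0.08, adjusted p = 0.536, edgeR), and the groups overlapped. The far right region had 15.5, 7.82 and 9.35 CPM against 6.22, 8.79 and 4.77 CPM (-0.73, interval -1.56 to 0.10, adjusted p = 0.535). The middle right region gave -0.25 (interval -1.13 to 0.64, adjusted p = 0.874), and the near right region held 19 control and 17 knockdown counts in all, too few for a fit.

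Of the 4 regions tested in H3K4me1, 0 were called by edgeR, 0 had an unadjusted p under 0.05, and DESeq2 and limma-voom also called 0. Across all 85815 regions tested for this mark edgeR called 0 (0%), 9003 had an unadjusted p under 0.05, and DESeq2 and limma-voom called 94 and 67. Summed over the 5 regions, H3K4me1 reached 100, 77.4 and 85.0 CPM in control libraries, against 88.7, 79.1 and 82.2 CPM with knockdown. The log2 ratio was -0.06, which did not differ beyond the spread between libraries (exact permutation test, two-sided, p = 0.7, n = 3; 0.1 is the smallest p possible). It was 0.028 without control replicate 1. The MAB21L2 region held 52.5%, 52.7% and 57.5% of these counts in control and 64.0%, 71.9% and 65.9% in knockdown libraries, and the groups did not overlap. The other 4 regions together had 47.5, 36.6 and 36.1 CPM in control and 31.9, 22.2 and 28.0 CPM in knockdown libraries. There the groups did not overlap either. Neither the difference in share nor that in the other 4 regions was tested. How often other sets of regions have such an order is not given, and nothing is read from it. The near-equal sums thus joined a higher mean over the gene with a lower mean beside it. No region passed the test in either direction, so no shift between the regions is read from this.

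**Figure D3:**
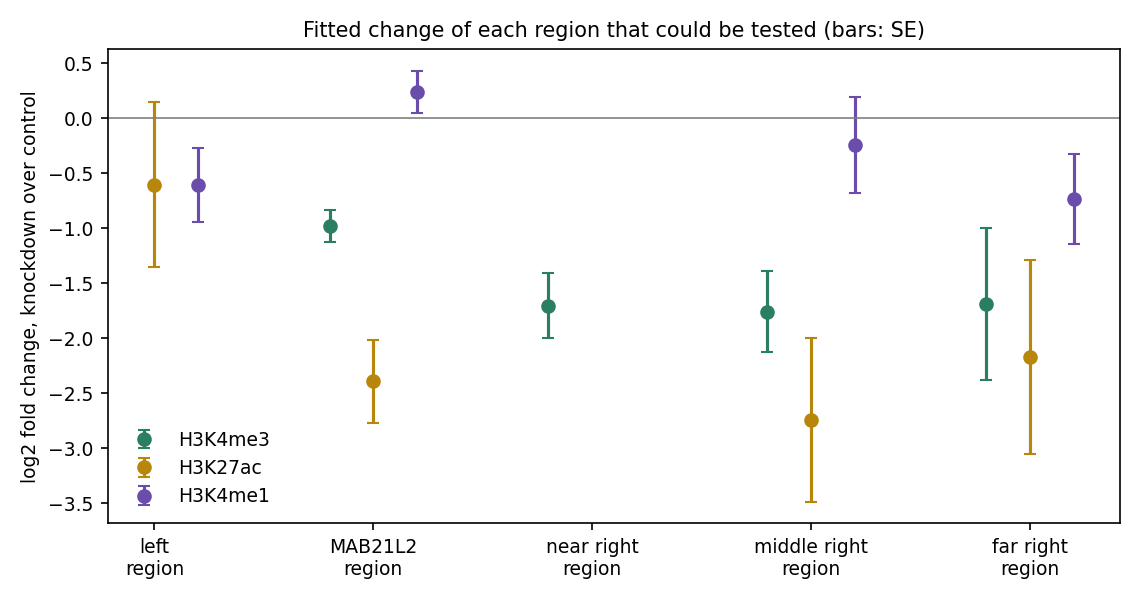
Fitted log2 fold change, knockdown over control (vertical axis), of each region with enough counts, in the order of position, with bars for the SE. H3K4me3 (green) and H3K27ac (yellow) lie below 0 in all regions shown, and H3K4me1 (purple) lies at 0.24 in the MAB21L2 region and below 0 in the others. H3K9me3 had no region with enough counts.

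Over the 5 regions together, the H3K4me3 sum came to 109 ± 17.4 CPM in control libraries, against 50.4 ± 7.98 CPM with knockdown (SD, n = 3), and the H3K27ac sum was 88.4 ± 42.0 and 19.4 ± 1.83 CPM. Knockdown cells thus had 46.1% of the control H3K4me3, 22.0% of the control H3K27ac and 95.3% of the control H3K4me1. In the 4 regions other than that of the gene, these shares were 29.3%, 28.2% and 68.3%. Among the 4 tested regions of each mark, the median log2 fold change was -1.70 in H3K4me3, -2.28 in H3K27ac and -0.43 in H3K4me1, against -0.01, -0.05 and -0.03 over all tested regions.

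H3K9me3, the mark of silenced chromatin, gave few counts at the locus in both groups. The MAB21L2 region held 10, 16 and 6 counts in control and 8, 7 and 4 counts in knockdown libraries. The other 4 regions together held 4 counts in each control library, and 10, 32 and 7 in the knockdown libraries. Of the 32, knockdown replicate 2 had 14 in the middle right and 16 in the far right region, where the other knockdown libraries had 0 and 0, and 4 and 1. The near right region held 0 counts in all control libraries and 2, 2 and 4 in the knockdown libraries, which is about the 3 counts that a library with 0 counts allows. Summed over the 5 regions, the means were 7.26 ± 3.24 and 11.3 ± 7.17 CPM (SD, n = 3). The log2 ratio of 0.51 did not differ beyond the spread (exact permutation test, two-sided, p = 0.5; smallest possible 0.1), and it was 0.01 without knockdown replicate 2 and 1.02 without knockdown replicate 3. None of the 5 regions could be tested for this mark, in which 0.00982% of the 30565 tested regions were called.

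CPM cannot be compared between antibodies, so each mark was also ranked by its density per kb among all 153244 regions of the same library. In control cells the MAB21L2 region ranked highest in H3K4me3, with 93.0% of regions below it, then in H3K27ac (81.2%), H3K4me1 (66.2%) and H3K9me3 (42.4%), ranked by its mean density over the 3 libraries. In knockdown cells the order was H3K4me3 (90.8%), H3K4me1 (75.6%), H3K27ac (36.4%) and H3K9me3 (18.8%). Single control libraries ranked it at 92.4%, 79.3% and 62.4% in H3K27ac, and at 72.9%, 65.5% and 70.0% in H3K4me1. These ranges overlap, so the 2 marks did not differ in rank beyond their spread in control cells. In knockdown libraries the ranks were 48.0%, 36.7% and 40.2% in H3K27ac and 75.9%, 76.7% and 74.2% in H3K4me1, without overlap. In H3K4me3 the ranks were 93.1%, 93.5% and 92.4% in control and 91.3%, 90.2% and 90.9% in knockdown libraries, a small gap without overlap. By density per kb, the gene's region in knockdown cells ranked above the median region in H3K4me3 and H3K4me1 and below it in H3K27ac. Its density is an average over 6161 bp, against a median width of 708 bp. A rank does not give the size of a difference. In H3K4me3, the far right region already ranked at 87.3% with 16 counts (knockdown replicate 1). H3K4me3 and H3K27ac entered the choice of the window, so their ranks are a description.

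**Figure D4:**
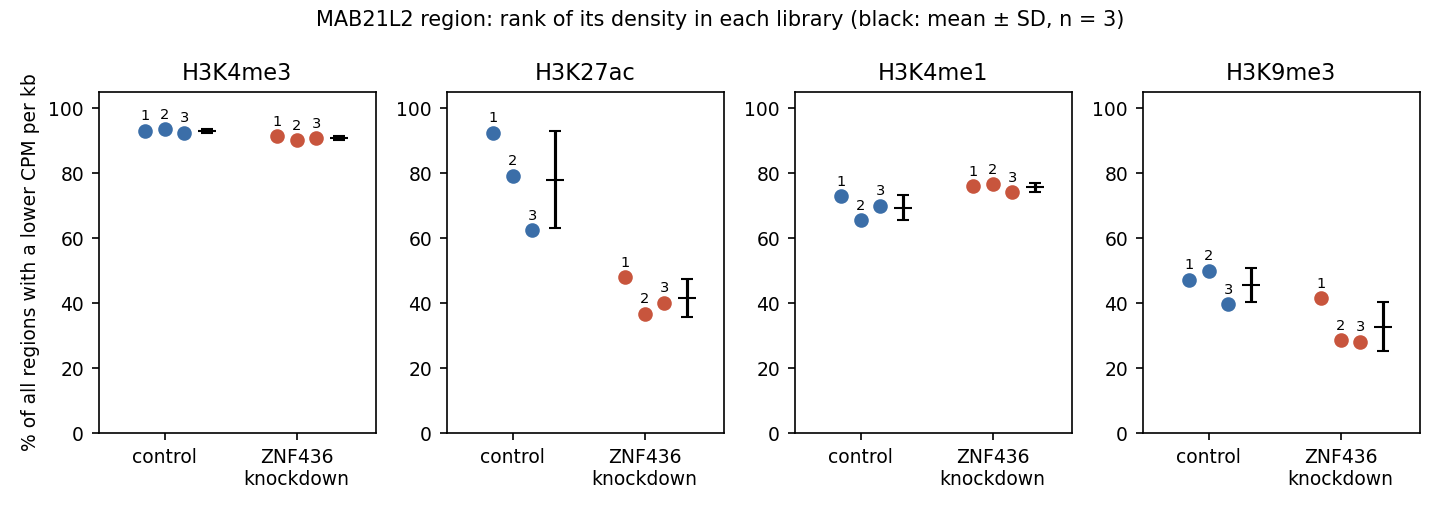
Rank of the MAB21L2 region in each library, as the percentage of all regions with a lower CPM per kb of the same mark (vertical axis), for control (blue) and knockdown (red) libraries; numbers are replicates and black bars the mean ± SD of 3 libraries. H3K4me3 ranks above 90% in all 6 libraries, although its CPM was lower in knockdown libraries. H3K27ac ranks at 62.4% to 92.4% in control and at 36.7% to 48.0% in knockdown libraries.

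Outside the window, the stretches of the same width (110000 bp) directly to the left and right held 4 and 1 regions, against the 5 of the locus. The first region to the left (151424276 to 151426371) held 2 control and 4 knockdown counts of H3K4me3 over all libraries, and the first to the right (151580076 to 151581138) held 6 and 3. H3K27ac counts there were 12 and 4 on the left and 1 and 3 on the right. Both carried H3K9me3, with 15.8 ± 3.26 CPM in control and 27.2 ± 6.39 CPM in knockdown libraries on the left and 10.7 ± 3.82 and 8.50 ± 2.90 CPM on the right (SD, n = 3). The log2 fold changes were 0.78 (adjusted p = 0.531, edgeR) on the left and -0.33 (adjusted p = 0.907, edgeR) on the right. Neither was called. The groups on the left did not overlap, but the share of all tested regions with that order is not given for H3K9me3. Nothing is read from it. For comparison, the left and far right regions, the last inside the window, held 54 and 75 control counts of H3K4me3.

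The nearest regions with enough H3K4me3 for a fit lay far away, and their groups differed by less than the spread between libraries. On the left, 448 kb from the window (150998827 to 151001568), H3K4me3 was 65.6 ± 4.33 and 64.1 ± 2.21 CPM (log2 fold change -0.03, SE 0.09). On the right, 374 kb from the window (151933869 to 151938209), it was 166 ± 3.88 and 164 ± 7.91 CPM (-0.02, SE 0.06). Whether the right one is the main start of LRBA was not tested, since no hg19 annotation was used. H3K27ac was 11.6 ± 2.34 and 6.87 ± 4.65 CPM on the left and 41.0 ± 15.2 and 29.6 ± 7.68 CPM on the right, with log2 fold changes of -0.74 (SE 0.59) and -0.47 (SE 0.33) and overlapping groups. Within 1 Mb on either side, 0 of the 1 (left) and 4 (right) regions tested in H3K4me3 and 0 of the 16 and 21 tested in H3K27ac were called by edgeR. Calls were rare over all tested regions as well, with 150 of 26773 in H3K4me3 and 7 of 61484 in H3K27ac. With so few regions, 0 called is near that share, and nothing is read from it. By sign, 13 of 16 on the left and 15 of 21 on the right had lower fitted H3K27ac in knockdown cells (medians -0.75 and -0.35, against -0.05 over all tested regions). These signs were not tested. The share of all tested regions with a lower fit is not given, and nothing is read from the signs.

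The regions most like the MAB21L2 region were sought over the 18 libraries of H3K4me3, H3K27ac and H3K4me1, with log2 CPM centred within each mark. Among 22275 regions tested in all of these marks, the highest Pearson correlation, 0.888, was that of a region on chromosome 4 (86395824 to 86396818). Next were a region of chromosome 19 (21785481 to 21788450) with 0.886 and one of chromosome 2 (217496980 to 217502178) with 0.877. A chromosome 8 region (104310124 to 104312879) and a chromosome 1 region (94700506 to 94704220) both had 0.875, and 1% of the candidates were above 0.718. All points share the same libraries and the same split into control and knockdown. At these 5 regions H3K27ac was lower in knockdown cells, from 43.1 to 19.0 CPM on chromosome 2, from 25.4 to 6.46 CPM on chromosome 1, from 32.8 to 15.4 CPM on chromosome 8, from 22.1 to 10.8 CPM on chromosome 19 and from 15.1 to 7.85 CPM on chromosome 4. Mean H3K4me3 at the same regions was 121 and 113 CPM on chromosome 2, 93.5 and 87.3 CPM on chromosome 1 and 75.0 and 64.9 CPM on chromosome 8. It was 24.5 and 19.6 CPM on chromosome 4 and 5.96 and 4.11 CPM on chromosome 19. These regions were picked for likeness to a region with lower knockdown H3K27ac, so the same difference in them follows from the picking. The values are a description of these libraries, and nothing is read from them.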

How the data were processed

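The authors deposited raw read counts per region for 24 libraries over one list of 153244 regions. Tools listed in the submitters' processing notes are deepTools 3.5.4, bedtools 2.30.0 and Bowtie2 2.4.5, and the build is hg19; neither their roles nor the origin of the region list are stated in the sources used. Groups and replicate numbers came from the titles. Separate cultures are not named in the labels; the spread behind each p-value is that between libraries and may be technical. Total counts per library lay between 2103185 and 2880412 for H3K9me3, 11023905 and 13933927 for H3K4me3, 3920283 and 4936265 for H3K4me1 and 2955710 and 3681687 for H3K27ac. Even counts made up 51.9% to 65.9% of counts above 0; whether both mates of a pair were counted is not stated, and if so, intervals on counts are too narrow. They cover counting error only.

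Each mark was fitted on all its regions with edgeR 4.0.16 (R 4.3.3): filterByExpr, library sizes over the regions kept, TMM scaling, the robust quasi-likelihood test with group as the only term, and Benjamini-Hochberg adjustment over all tested regions (called under 0.05). The filter kept 26773 regions for H3K4me3, 61484 for H3K27ac, 85815 for H3K4me1 and 30565 for H3K9me3. The fit was checked on simulated counts. SE is the log2 fold change over the square root of F; log2 CPM for likeness used a prior count of 2. A region was a member with at least 1 base in the window. Window sums of H3K4me1 and H3K9me3 were compared by exact permutation tests, and all other sums are given without a test. All members were named, with full values for those over the gene, called in any mark or densest in a mark. Members, lists and tests were chosen with earlier results of these data known, and the choice of the shown promoters, sought for MAB21L2 first, and of the neighbouring regions after their values were seen. Cell type markers, the MAB21 family list and ZNF436 itself need an hg19 annotation and were not analysed here. Positions count from 1.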

Additional observations from a re-analysis of the deposited data

How the results depend on the processing

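The log2 fold change of the MAB21L2 region kept its sign, and in H3K4me1 its side of the threshold, under all alternatives run: RLE factors, library totals, loess offsets (span 0.3), a strict filter (CPM equal to 30 reads of the smallest library, in 3 libraries), no filter, DESeq2 1.42.0, limma-voom (limma 3.58.1), a replicate block, leaving out each library and, added after seeing the data, halved counts. Other than by leaving out a library, it lay between -1.01 and -0.98 for H3K4me3, -2.48 and -2.28 for H3K27ac and 0.22 and 0.37 for H3K4me1. The number of window regions called went from 0 to 3 in H3K4me3 and from 0 to 1 in H3K27ac when single libraries were left out, and was 2 in H3K4me3 with limma-voom; the summed H3K4me1 lay between -0.15 and 0.028 (the highest without control replicate 1). Of the other regions, the left one lay between -0.94 and 0.35 in H3K27ac, and was above 0 without control replicate 1 alone. The cause was not tested. Counts over all regions moved more: 150 in H3K4me3 became 666 with no filter, 456 with DESeq2 and 27 to 805 without a library; 7 in H3K27ac became 4 with library totals, 22 with loess offsets, 599 with no filter, 43 with the strict filter, 669 with DESeq2, 185 with limma-voom, 118 with halved counts and 0 to 1412 without a library. In H3K4me1 the 0 became 10 with library totals, 208 with no filter and 0 to 2443 without a library, and in H3K9me3 the 3 became 5 with loess offsets, 49 with DESeq2, 6 with limma-voom and 4 to 20 without a library. No member had enough H3K9me3 counts for the main fit. Keeping only regions wholly inside the window changed nothing, since all 5 are.

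The labels do not say whether same-numbered libraries were paired. Their deviations correlated between -0.0985 and 0.0641, which does not settle it. With a replicate block, the MAB21L2 region gave -0.98 in H3K4me3, -2.29 in H3K27ac and 0.25 in H3K4me1, and window calls were 2, 1 and 0. Calls over all regions were 177 in H3K4me3, 102 in H3K27ac, 94 in H3K4me1 and 6 in H3K9me3. Not every library correlated best with its own number. The summed window under the block was -1.12 in H3K4me3, -2.07 in H3K27ac, -0.06 in H3K4me1 and 0.51 in H3K9me3.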
